A study of Mus musculus with 28 samples.

Results

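The heart and the gastrocnemius, the large calf muscle, are both striated muscle, and their transcripts were compared here in young mice. Of 28 samples in the study, 8 entered: the 4 heart and 4 gastrocnemius samples of the 6-month group, chosen by tissue and age as labelled, and every gene with a probe set of a single gene symbol was compared, 30063 genes in all. All animals were female mice of the inbred strain C57BL/6J, group housed on standard chow, and those of the 6-month group were killed at 24 weeks of age after an overnight fast. No treatment or transgene was named for any group, so diet, sex, strain and fasting were shared by both tissues. The 24-month samples of the same tissues (103 weeks, 4 each) are used only to see whether a tissue difference recurred. The labels do not say whether the samples are separate animals, or whether heart and muscle of one replicate number came from one mouse, so p-values measure only the spread between these samples. The extent of the heart dissection (atria, ventricles, great vessels) is not given in the labels either.

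The heart beats without pause on an oxidative supply of fatty acids, lactate and ketone bodies. Its cells are joined end to end by intercalated discs, and its contraction is triggered by calcium that enters through surface channels and releases more from the sarcoplasmic reticulum. The mouse gastrocnemius is mostly made of fast glycolytic fibres, large cells with many nuclei that contract only when a motor nerve fires, that open their calcium store by direct contact between a voltage sensor and the release channel, and that draw on glycogen. Many proteins of the sarcomere and of calcium handling exist in cardiac, slow and fast forms encoded by different genes.

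Values are log2 expression levels, 1 per probe set and array, as the authors deposited them, so a difference of 1 is 2-fold. A gene was called where its adjusted p (limma, Benjamini-Hochberg over 30063 genes) was under 0.05, and differences are heart minus gastrocnemius throughout. The array medians were 5.29 to 5.33 in heart and 4.88 to 4.92 in gastrocnemius, and the median difference of all genes was 0.27. That shift was -0.057 after quantile normalization, -0.14 with arrays centred on their median and -0.035 after cyclic loess. In the deposited values 23266 genes (77.4%) were called, 18687 higher (62.2%) and 4579 lower (15.2%) in heart, and 2392 (7.96%) were called with a difference of at least 2-fold, 1733 higher (5.76%) and 659 lower (2.19%). The split followed the scaling: called genes were 8022 higher and 11629 lower after quantile normalization, 6119 and 14777 with centred arrays, and 8649 and 10883 after cyclic loess. Because of this, the words higher and lower are used below only of genes called in the same direction under all 4 scalings, unless stated otherwise: 6004 genes higher in heart (20%) and 4508 lower (15%). Of these, 1330 (4.42%) differed by at least 2-fold under each, 676 higher (2.25%) and 654 lower (2.18%). The values named are those of the deposited scale. Counts of higher and lower genes in a list are to be read against the 20% and 15% of all genes. The groups of 4 arrays did not overlap for 21172 genes (70.4%), so a lack of overlap by itself sets no gene apart here.

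Each tissue carried its own myosin. Myh6, the alpha myosin heavy chain of adult mouse heart, read 13.22, 13.26, 13.23 and 13.29 on the heart arrays and 7.23, 6.92, 7.25 and 6.81 on the gastrocnemius arrays. Myh4, the myosin of the fastest fibres, read 5.76, 5.78, 5.76 and 6.0 in heart and 13.58, 13.60, 13.55 and 13.59 in gastrocnemius. The groups were far apart for both genes, with a spread within each tissue of under 1 log2 unit, and the difference was 6.20 ± 0.095 (SE; limma adjusted p = 3.75e-11) for Myh6 and -7.76 ± 0.058 (adjusted p = 2.26e-13) for Myh4. All but 1 of the 18 cardiac myocyte markers were higher in heart, the exception being Hrc, a calcium-binding protein of the reticulum, whose difference was 0.25 and turned with the scaling. All 20 fast fibre markers were lower. The labels therefore matched the tissues' defining transcripts on all 8 arrays.

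**Figure D1:**
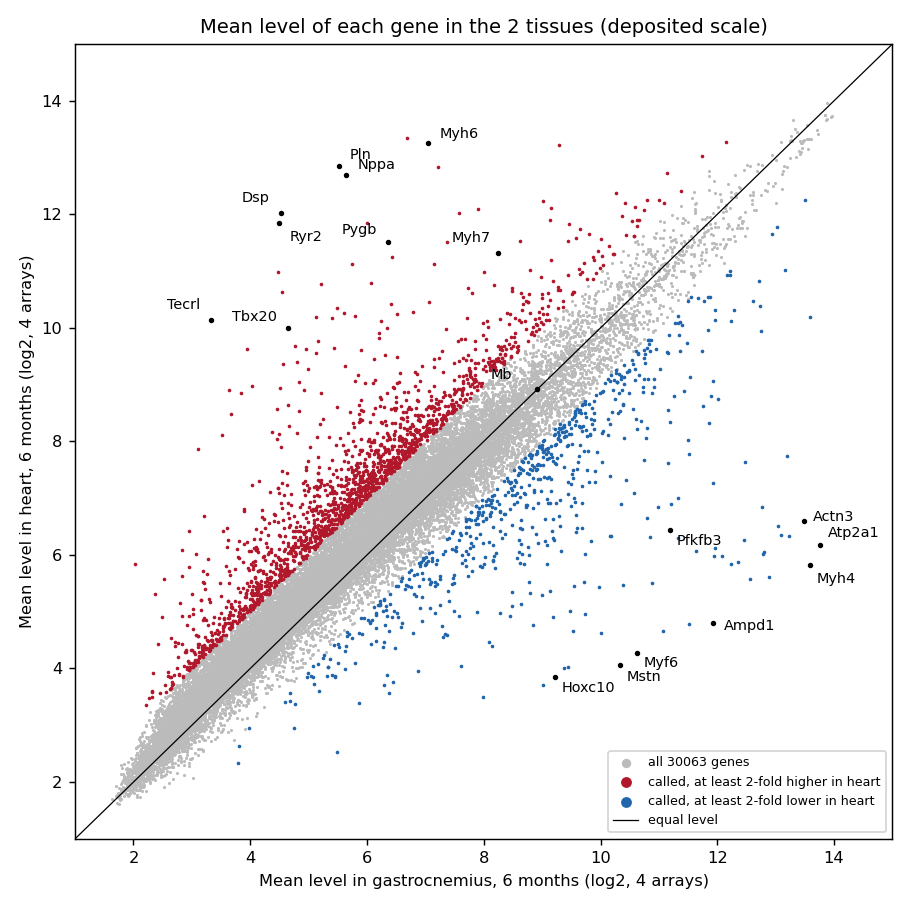
Mean level in gastrocnemius (x axis) and heart (y axis), both log2 over 4 arrays, for each of 30063 genes; the line marks equal levels and colours mark genes called with at least 2-fold on the deposited scale (1733 red, 659 blue). Most genes lie near the line, while Dsp, Ryr2, Pln and Nppa lie far above it and Myh4, Atp2a1, Myf6 and Hoxc10 far below.

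The cardiac myosin genes also carry microRNAs, short RNAs that repress messages matching their seed (bases 2 to 8), and the array holds probe sets for the hairpin precursors. Their mature sequences are shown because 2 of them are the same at the seed and come from the myosin genes Myh6 and Myh7. In each sequence the capitals mark the seed. The sequences and positions are RefSeq's for assembly GRCm38.p6, which places each hairpin inside the named host gene on its strand. The first pair shares 1 seed, and the third matches them at bases 2 to 7.
miR-208a-3p (in Myh6, chr14:54949072-54949093, reverse strand): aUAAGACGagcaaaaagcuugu
miR-208b-3p (in Myh7, chr14:54975710-54975731, reverse strand): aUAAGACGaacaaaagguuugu
miR-499-5p (in Myh7b, chr2:155622893-155622913, forward strand): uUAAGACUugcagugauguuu
miR-490-3p (in Chrm2, chr6:36421800-36421821, forward strand): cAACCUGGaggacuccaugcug

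The Mir208a probe set read 6.60, 6.85, 6.46 and 6.84 in heart and 3.40, 3.03, 3.17 and 3.26 in gastrocnemius, without overlap, a difference of 3.47 ± 0.10 (limma adjusted p = 3.06e-09). Its host Myh6 differed by 6.20. Mir208b differed by 2.42 and its host Myh7, the beta myosin of slow fibres, by 3.07. Mir490 differed by 3.25 and its host Chrm2, the muscarinic receptor of the heart, by 5.28. All of these held under the 4 scalings. Mir499 differed by 0.54 on the deposited scale and its call did not hold under each scaling, whereas its host Myh7b differed by 1.49. Among the 610 microRNA genes measured, 7 were at least 2-fold higher and 4 at least 2-fold lower in heart under each scaling. Of the 157 that lie inside 1 measured coding gene, 12 had a host at least 2-fold higher in heart, and 7 of those precursors were higher too, against 20% of all genes. Only 1 of the 3 precursors in hosts at least 2-fold lower was itself lower: Mir1933 in Ugp2 (-1.40), while Mir1963 in Ryr1 differed by -0.013 although its host differed by -6.09. Whether these probe sets read the hairpin or other RNA of the host was not tested, and these microRNA genes were picked once their values were known.

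The largest differences in the heart's favour belonged to its junctions, its calcium release and its hormones. Dsp, desmoplakin of the desmosome, read 12.01, 12.06, 12 and 12.03 in heart and 4.53, 4.48, 4.56 and 4.51 in gastrocnemius, a difference of 7.51 ± 0.037 (limma adjusted p = 6.27e-14). Its gastrocnemius level lay below the array medians and was not shown to be above background, so its difference, like others from such low levels, may be understated. Ryr2, the release channel of the heart, read 11.81, 11.84, 11.91 and 11.80 against 4.50, 4.47, 4.46 and 4.52, and Pln, which restrains the calcium pump, 12.86, 12.83, 12.84 and 12.85 against 5.54, 5.09, 5.85 and 5.59. No array of either tissue came within 6.98 log2 units of the other tissue for these genes. Nppa (7.06), the atrial natriuretic peptide, Tecrl (6.81), an enoyl reductase-like protein of the heart's reticulum, and Tnnt2 (6.65), cardiac troponin T, followed. The non-coding RNA D830005E20Rik (6.50) ranked seventh, and Mylk3 (6.09), Mybpc3 (5.84), the kinase Tnni3k (5.68), Ankrd1 (5.63), Cdh2 (5.57), Tnni3 (5.37) and Tbx20 (5.35) completed the first 15 with Myh6. On the gastrocnemius side, Myh4 was followed by the fast calcium pump Atp2a1 (-7.59), the fast regulatory light chain Mylpf (-7.26), the adenylate deaminase Ampd1 (-7.12), Myh1 (-6.99), Tnnc2 (-6.90) and Actn3 (-6.89). Car3, a carbonic anhydrase (-6.77), Tnnt3 (-6.75), the calcium buffer Pvalb (-6.74), Mybpc1 (-6.73), the giant thin filament protein Neb (-6.54), Myh2 (-6.49), the mitochondrial factor Mss51 (-6.41) and the calcium channel subunit Cacng1 (-6.40) made up the rest.

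Pairs of related genes, with a member assigned to heart and a member assigned to skeletal muscle, mostly lay on opposite sides of the comparison. Not every pair is a cardiac and a skeletal form of one protein. Pygb is the brain form of glycogen phosphorylase, Cdh2 and Cdh15 are different cadherins, and Pln and Mrln are different peptides. Of 28 pairs with both members measured, 25 had the heart member higher and the skeletal member lower in heart under all 4 scalings. Over all genes 20% were higher and 15% lower. The members were assigned with earlier results of these data known, so the count describes the pairs chosen and tests nothing. In the contractile apparatus these were the troponins I (Tnni3 5.37, Tnni2 -5.97), T (Tnnt2 6.65, Tnnt3 -6.75) and C (Tnnc1 4.45, Tnnc2 -6.90), the regulatory (Myl2 3.74, Mylpf -7.26) and essential light chains (Myl3 4.14, Myl1 -5.45), and the myosin binding proteins C (Mybpc3 5.84, Mybpc2 -5.93). The light chain kinases Mylk3 (6.09) and Mylk2 (-5.56) and the nebulins Nebl (5.02) and Neb (-6.54) followed the same pattern. The size was often unequal between the members: Actn2, the alpha-actinin of all striated muscle, differed by only 0.92 while Actn3 differed by -6.89, and the leiomodins Lmod2 and Lmod3, which lengthen thin filaments, differed by 1.85 and -0.38. The exceptions were the junctophilins (Jph2 -0.26, Jph1 -3.13), which anchor the reticulum to the surface membrane, the tropomodulins that cap thin filaments (Tmod1 -0.060, Tmod4 -3.53) and the beta subunits of the sodium pump (Atp1b1 0.56, Atp1b2 -2.10). In these families the skeletal member was lower in heart and the other was either not called (Tmod1, Atp1b1) or lower as well (Jph2). For Atp1b1 this hinged on gastrocnemius replicate 3: without that array it was called, with a difference of 0.80 (limma adjusted p = 0.0127).

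**Figure D2:**
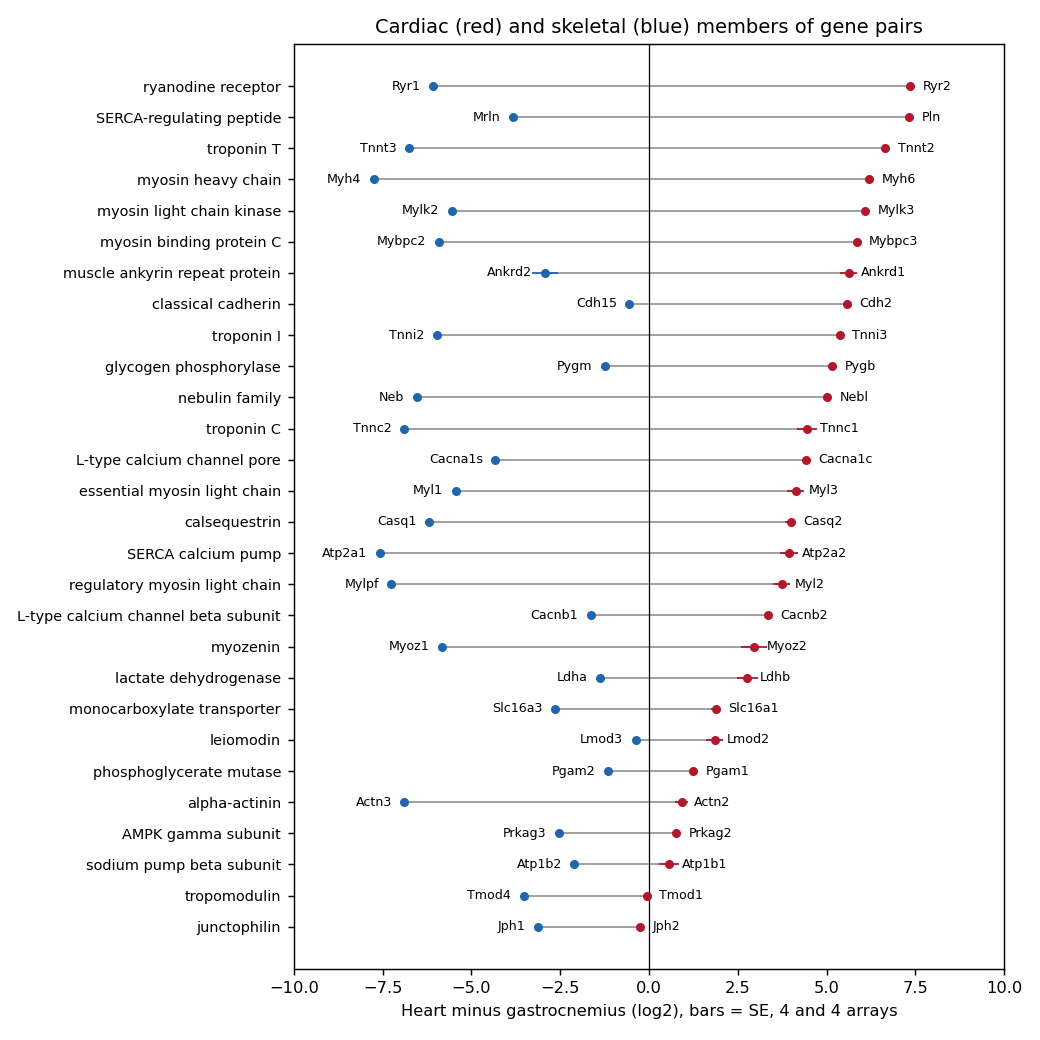
Heart minus gastrocnemius difference (x axis, log2, bars SE, 4 and 4 arrays) in 28 gene pairs (y axis). Red marks the member assigned to heart and blue the member assigned to skeletal muscle. The members lie on opposite sides of 0 in all families but tropomodulin (Tmod1 -0.060) and junctophilin (Jph2 -0.26), although the Atp1b1 difference was not called.

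By filament, 11 of 25 thick filament genes were higher and 12 lower. Among 24 thin filament genes 7 were higher and 14 lower, with skeletal actin Acta1 (-3.40) lower in heart. The Z-disc and M-band list leaned to the calf muscle, with 34 of 52 lower and 9 higher. Beside Actn3 and Myoz1 (-5.83), the LIM protein Fhl3 (-4.66) and the membrane-curving Bin1 (-4.30), needed for transverse tubules, were lower. The stress-responsive Ankrd1 (5.63), Fhl2 (4.72), the muscle LIM protein Csrp3 (3.22) and the calsarcin Myoz2 (2.95) were higher. Of 13 embryonic and developmental sarcomere genes 4 were higher and 6 lower, and the myosins Myh3 (-0.88) and Myh8 (-1.69) were lower in heart.

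Genes named for slow fibres did not behave as a group. Of 14 measured, 7 were higher in heart, each also used by the ventricle: Tnnc1 (4.45), Myl3 (4.14), Casq2 (3.99), Atp2a2 (3.94), Myl2 (3.74), Myh7 (3.07) and Myh7b (1.49). Another 4 were lower, the slow troponins Tnni1 (-1.66) and Tnnt1 (-0.95), the stretch-responsive Ankrd2 (-2.94) and Fhl1 (-0.83). Myoglobin, Mb, which stores oxygen in both tissues, differed by -0.0050 and was not called. It read 8.90 to 8.94 in heart and 8.41 to 9.26 in gastrocnemius, and ranked 1970 of 30063 genes by mean level. Whether its probe set reads the full level of this transcript was not tested, so equal amounts are not shown.

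The calf samples differed among themselves in several of these genes. Myh7 read 8.65, 7.94, 8.90 and 7.47 on gastrocnemius arrays 1 to 4 and 11.42, 11.30, 11.21 and 11.32 in heart. Tnnc1 read 7.79, 7.20, 8.42 and 6.87 in gastrocnemius and 12.03, 12, 12.11 and 11.95 in heart, and Tnnt1 7.82, 7.27, 7.87 and 7.0 and 6.55, 6.53, 6.52 and 6.57. Replicate 3 was highest and replicate 4 lowest in gastrocnemius for all 3, and the same order of the 4 arrays (3, 1, 2, 4) held for Myl2, Tnni1, Atp2a2 and Casq2, whereas Myl3 ran 3, 2, 1, 4. For Tnnt1 the heart arrays lay inside a narrow band below every gastrocnemius array. Csrp3 read 9.29, 9.09, 10.15 and 7.52, again lowest in replicate 4, and Myh2, the fast oxidative myosin, read 12.59, 12.56, 12.70 and 11.58 with replicate 4 apart. Tendon transcripts were ordered in part alike: Tnmd read 5.45, 5.32, 6.43 and 5.32, highest in replicate 3 with replicates 2 and 4 tied. Thbs4 and Fmod followed the order 3, 1, 2, 4, but Kera ran 3, 2, 4, 1. Whether the pieces of muscle differed in fibre make-up was not tested. In bulk samples such as these, fewer cells of a type and less RNA per cell cannot be told apart. Leaving out any one array moved none of these genes' fold differences by over 1.5 times.

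**Figure D3:**
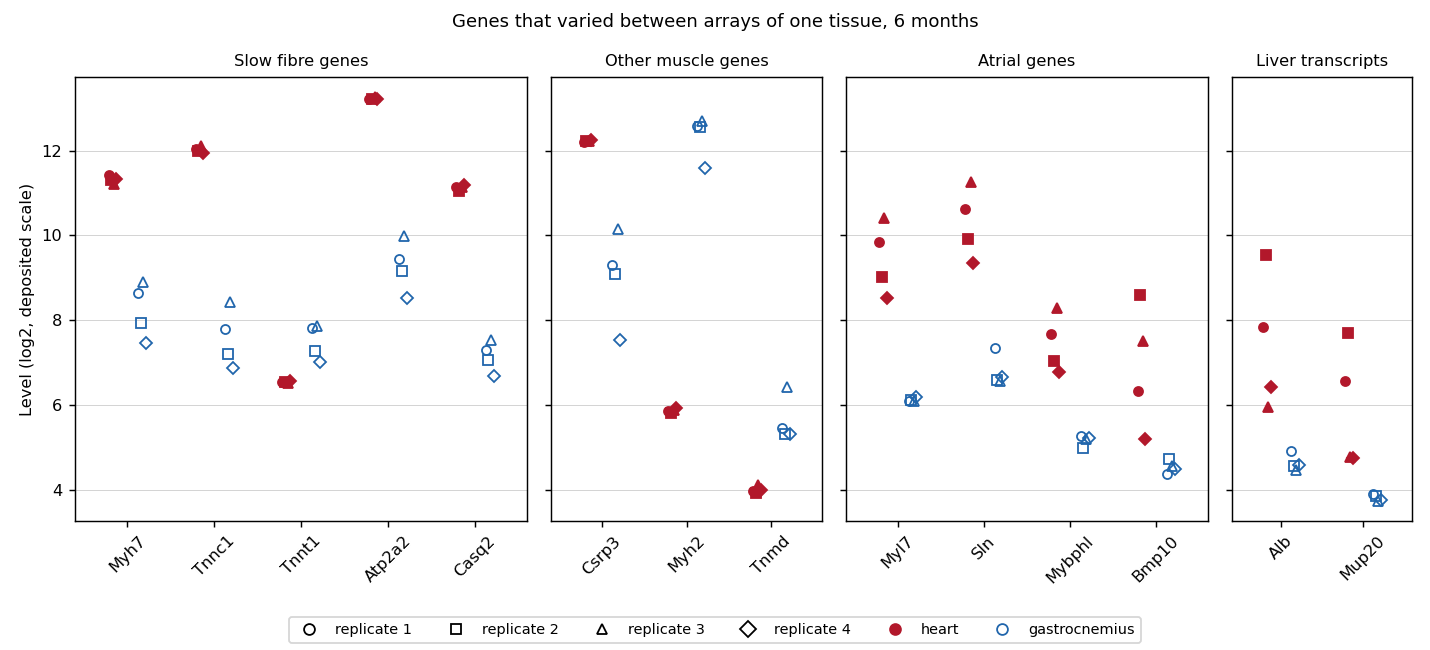
Level (y axis, log2) of single genes (x axis) on each of 4 heart (filled red) and 4 gastrocnemius (open blue) arrays at 6 months, with the symbol giving the replicate. Slow fibre genes spread over the gastrocnemius arrays, with replicate 3 at the top and replicate 4 at the bottom, and atrial and liver transcripts spread over the heart arrays.

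Calcium handling was divided along the same line as the sarcomere. Of 48 genes of excitation-contraction coupling, 15 were higher and 27 lower in heart. Cacna1c, the pore of the cardiac L-type channel, read 10.21, 10.23, 10.19 and 10.19 in heart and 5.80, 5.78, 5.85 and 5.74 in gastrocnemius, and Cacna1s, the skeletal voltage sensor, 6.98, 7.04, 7.02 and 7.0 and 11.29, 11.35, 11.36 and 11.33. Neither gene's groups overlapped, and the differences were 4.41 ± 0.039 and -4.32 ± 0.037 (limma adjusted p = 5.74e-13 and 5.32e-13). The beta subunits Cacnb2 (3.35) and Cacnb1 (-1.65), the release channels Ryr2 (7.35) and Ryr1 (-6.09), the reticulum's calcium buffers Casq2 (3.99) and Casq1 (-6.19) and its pumps Atp2a2 (3.94) and Atp2a1 (-7.59) went the same 2 ways. So did the small pump regulators, Pln (7.33) on the cardiac side and Mrln (-3.84) on the skeletal side. Sln, a pump regulator of atria and of some skeletal muscle, was higher in heart by 3.50.

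Channel genes fell on both sides. In the list of sodium, potassium and chloride channels and pumps, 18 of 40 were higher and 13 lower. Kcnip2 (4.62) and Kcnd2 (4.11), which form the transient outward current, and Kcnj3 (4.20) with Kcnj5 (3.37), which form the channel that acetylcholine opens in atria and nodes, were among the highest, as was the background channel Kcnk3 (3.89). The chloride channel Clcn1 (-2.87), which stabilises the resting fibre, the calcium-activated Kcnma1 (-4.08) and the membrane protein Ano5 (-4.20) were lower. Further potassium channel genes were lower in heart too: the inward rectifiers Kcnj2 (-0.52), whose groups overlapped, and Kcnj12 (-0.48), and the voltage-gated Kcna7 (-1.84), Kcnc1 (-1.17) and Kcnc4 (-2.18). Scn4b, listed among ventricular genes as a sodium channel subunit, went against its list at -2.47. The other 14 of 15 ventricular genes were higher, Nppb (5.07) and Lbh (4.83) among them.

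Cell junction genes were mostly higher in heart. Of 28 intercalated disc and adhesion genes 18 were higher in heart, 14 of them at least 2-fold under each scaling (as were 2.25% of all genes), and 5 were lower. The list's median difference was 1.43, against 0.27 over all genes. N-cadherin, Cdh2, read 10.87, 10.73, 10.71 and 10.81 in heart and 5.24, 5.16, 5.19 and 5.26 in gastrocnemius. The desmosomal Dsg2 (4.80) and Dsc2 (4.59) were higher with it. The 5 that were lower were M-cadherin of muscle precursors, Cdh15 (-0.55), the Popeye proteins Bves (-0.74) and Popdc3 (-0.58), the ankyrin Ank3 (-0.72) and the actin-anchoring Nrap (-0.66).

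Genes of the nerve-muscle synapse fell on both sides, and the furthest from 0 was on the calf side. Musk, the receptor kinase that organises the synapse, read 4.94, 4.99, 5.07 and 5.02 in heart and 9.01, 9.31, 9.64 and 9.93 in gastrocnemius, a difference of -4.47 with no overlap. The acetylcholine receptor subunits Chrna1 (-2.89) and Chrne (-2.09) and the esterase Ache (-2.27) were lower in heart too. In all, 8 of 23 synaptic genes were lower and 7 higher, beside 15% and 20% of all genes. Those higher included agrin, Agrn (1.24), and neuregulin, Nrg1 (1.76), whose other probe set, of lower mean, differed by -0.51, so the 2 probe sets of Nrg1 pointed opposite ways. Of the 23 costamere and dystrophin complex genes 7 were higher and 8 lower, led by the membrane repair protein Ano5, the protease Capn3 (-3.59) and the synthase Nos1 (-2.13).

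Transcription factors of the cardiac and skeletal lineages also lay on opposite sides. Of 24 cardiac factors 16 were higher in heart. Tbx20 read 10, 10.05, 9.99 and 9.96 in heart and 4.67, 4.58, 4.69 and 4.66 in gastrocnemius, and Tbx5 (4.28), Gata6 (3.70) and Myocd (3.14), a partner of serum response factor, came next. Of the list, 4 were lower: Mef2c (-2.0), which also acts in skeletal muscle, Nfatc1 (-0.66), Tead1 (-0.66) and Casz1 (-0.31). Myf6, the myogenic factor of adult fibres, read 4.19, 4.23, 4.25 and 4.45 in heart and 10.55, 10.50, 10.55 and 10.88 in gastrocnemius, a difference of -6.34 ± 0.090 (limma adjusted p = 2.3e-11), from a heart level below the array medians. With it, 23 of 32 myogenic and satellite cell genes were lower, Tbx15 (-5.38), Eya4 (-4.28) and Stac3 (-3.24) the furthest, and 2 were higher, Itga7 (1.0) and Heyl (0.96). Pax7, the defining factor of satellite cells, differed by -0.065 and was not called.

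The Hox genes, which pattern the trunk and limbs, did not all differ in the same direction. Hoxc10, a gene of the hindlimb level, read 3.80, 3.77, 3.99 and 3.82 in heart and 9.06, 9.25, 9.22 and 9.33 in gastrocnemius, with no overlap. Its difference of -5.37 stood well beyond the next, Hoxc9 (-1.89), Hoxc4 (-1.62) and Hoxd8 (-1.36). Of 41 Hox and limb genes 21 were lower in heart and 5 higher. The latter were led by the Hox cofactors Meis2 (2.54), Meis1 (1.75) and Pbx3 (1.12), with Hoxc13 (0.70) and Hoxb13 (0.62). Hoxb13 lay below the array medians in both tissues, at 4.65 to 4.81 in heart and 4.07 to 4.17 in gastrocnemius. Hoxc13 lay a little above them, at 5.70 to 5.94 and 5.04 to 5.19. Neither was shown to be above background. Whether these differences follow position along the body was not tested.

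Promoters of 4 genes with large differences are given as the 150 bases before the annotated start (RefSeq, GRCm38.p6), because natriuretic peptide genes and fast myosin genes sit side by side on their chromosomes and differed together. Nppa and Nppb are neighbours on chromosome 4, Myh1 and Myh4 on chromosome 11, all on the forward strand. Capitals mark matches, on either strand, to TATAAA (the TATA box), AGATAA (a sequence GATA factors bind), CATTCC (bound by TEAD factors), CAGCTG (an E-box of the kind bound by myogenic factors) and the MEF2 site, none of which overlapped in these windows.
Nppa (chr4:148000572-148000721): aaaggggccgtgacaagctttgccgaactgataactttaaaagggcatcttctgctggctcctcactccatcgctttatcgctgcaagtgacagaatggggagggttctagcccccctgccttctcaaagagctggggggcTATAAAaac
Nppb (chr4:147985750-147985899): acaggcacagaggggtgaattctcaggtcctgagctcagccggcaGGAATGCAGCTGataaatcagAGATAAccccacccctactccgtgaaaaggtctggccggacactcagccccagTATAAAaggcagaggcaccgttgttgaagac
Myh1 (chr11:67199952-67200101): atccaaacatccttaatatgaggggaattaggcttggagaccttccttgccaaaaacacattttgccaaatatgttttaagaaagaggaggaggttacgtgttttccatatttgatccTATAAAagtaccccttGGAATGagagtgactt
Myh4 (chr11:67237662-67237811): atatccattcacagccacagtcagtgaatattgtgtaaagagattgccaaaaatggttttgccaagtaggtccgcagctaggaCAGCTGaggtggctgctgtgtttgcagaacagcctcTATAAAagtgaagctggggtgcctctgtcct

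The 4 windows all held TATAAA. Nppb also held the GATA, TEAD and E-box sequences as spelled above, Myh4 the E-box and Myh1 the TEAD sequence. For GATA factors only that spelling was searched, so a window without a match is not shown to lack a GATA site. The Nppa window held, in lower case, a run that differs from the searched GATA sequence only at its first base. Windows of this length were at hand for 15191 of the genes, and TATAAA occurred in 8.11% of them, AGATAA in 5.31%, CATTCC in 7.02%, CAGCTG in 7.92% and the MEF2 site in 1.03%. Among the 377 of these genes at least 2-fold higher in heart under each scaling, TATAAA occurred in 7.43%, CATTCC in 9.81%, AGATAA in 6.63%, CAGCTG in 11.4% and the MEF2 site in 1.86%. Among the 329 at least 2-fold lower, the shares in the same order were 10.3%, 8.51%, 3.04%, 13.7% and 4.26%. These shares describe the windows and were not tested.

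Secreted factors set the tissues apart at both ends. Nppa read 12.57, 12.56, 12.98 and 12.69 in heart and 5.67, 5.55, 5.67 and 5.69 in gastrocnemius, and Nppb, the brain natriuretic peptide, differed by 5.07. Myostatin, Mstn, which limits muscle mass, read 4.05, 4.20, 4.0 and 4.0 in heart and 10.19, 10.21, 10.20 and 10.72 in gastrocnemius, and osteocrin, Ostn, a muscle peptide that competes for natriuretic clearance, differed by -5.37. Neither gene's groups overlapped. Of 57 hormones and secreted factors 27 were higher in heart and 11 lower. Fgf1 (1.82) was among the former, and the Mstn relative Gdf11 (-1.44) and Wnt4 (-0.98) among the latter. Bmp10, an atrial growth factor, was higher by 2.38, with heart arrays from 5.20 to 8.60 (6.33, 8.60, 7.51 and 5.20). Receptors and cyclic nucleotide enzymes leaned to the heart, with 29 of 46 higher and 4 lower. Chrm2 (5.28), the phosphodiesterases Pde3a (3.06) and Pde1c (2.94) and the cyclase Adcy6 (2.40) were highest, and the cyclase Adcy2 (-3.53) and the kinase subunit Prkar2a (-1.5) were lower.

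Fuel genes divided by pathway. Of 60 genes of fatty acid uptake and oxidation 45 were higher in heart and 4 lower, with a median of 1.10 on the deposited scale and 0.70 with centred arrays. Lipoprotein lipase, Lpl, which frees fatty acids in capillaries, read 12.36, 12.38, 12.35 and 12.43 in heart and 10.33, 10.36, 10.67 and 9.69 in gastrocnemius, a difference of 2.12 ± 0.17 (limma adjusted p = 2.3e-06). The triglyceride synthase Dgat2 (2.24), the last enzyme of beta-oxidation Acaa2 (2.11) and the thioesterase Acot1 (2.09) were higher as well. The 4 lower were the uncoupling protein Ucp3 (-1.05), the acyl-CoA synthetases Acsl4 (-0.93) and Acsl6 (-0.58) and the droplet protein Plin4 (-0.28).

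Glycolytic genes were mostly lower in heart. Of 28 glycolytic genes 20 were lower in heart and 8 higher, with a median of -0.93. Pfkfb3, which makes the activator of phosphofructokinase, read 6.49, 6.44, 6.41 and 6.40 in heart and 11.43, 11.28, 10.88 and 11.14 in gastrocnemius. It was lower by more than any other member (-4.75), followed by the glycerophosphate dehydrogenases Gpd2 (-2.65) and Gpd1 (-2.59) and the lactate exporter Slc16a3 (-2.63). The 8 higher genes included Ldhb (2.77), which favours lactate use, Hk1 (1.91) and the lactate importer Slc16a1 (1.89). The others were Pfkl (1.49), Pfkp (1.43), Pgam1 (1.25), Fbp1 (0.72) and Slc2a1 (0.59). Ldhb, Pgam1 and Slc16a1 had a related form that was lower, Ldha (-1.39), Pgam2 (-1.16) and Slc16a3. Fbp1 read close to the array medians, 5.26 to 5.63 in heart and 4.61 to 4.72 in gastrocnemius. Glycogen genes were lower in 17 and higher in 7 of 28. The 4 furthest below 0 were 3 subunits of phosphorylase kinase (Phka1 -3.74, Phkg1 -3.13, Phkb -2.86) and the AMPK subunit Prkag3 (-2.53). The brain form of glycogen phosphorylase, Pygb, went against the list: it read 11.52, 11.57, 11.49 and 11.49 in heart and 6.33, 6.38, 6.37 and 6.34 in gastrocnemius, while the muscle form Pygm differed by -1.25.

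In mitochondria, single isoforms differed more than whole complexes. Slc25a13, an aspartate-glutamate carrier, read 9.62, 9.69, 9.58 and 9.60 in heart and 5.03, 4.95, 5.04 and 4.79 in gastrocnemius and was higher by 4.67, whereas its sister carrier Slc25a12 was lower (-0.87). The dehydrogenase subunit Ogdhl (3.28) and isocitrate dehydrogenase Idh2 (2.38) were higher, and the alanine transaminase Gpt2 (-2.08) was lower. Of 41 genes of pyruvate dehydrogenase and the citric acid cycle 20 were higher and 6 lower. The ADP/ATP carriers split too, Slc25a5 higher (1.87) and Slc25a4 lower (-0.98). By contrast, complex I had 29 of 33 genes called higher on the deposited scale and only 9 under all 4 scalings, with a median that fell from 0.42 to 0.0075 with centred arrays. Complexes III and IV had 18 of 28 higher under each, Cox8a (1.41) and Cox7a1 (1.03) the most, and ATP synthase and nucleotide exchange 9 of 21. Among ketone and branched-chain amino acid genes 11 of 23 were higher, Ppm1k, the phosphatase that activates branched-chain oxidation, by 2.30. The coactivators Ppargc1a (1.47) and Ppargc1b (1.45) of mitochondrial biogenesis were higher. Their list of 32 regulators had 8 higher and 7 lower, beside 20% and 15% of all genes. The list's median turned from 0.245 as deposited to -0.16 with centred arrays. Among 22 genes of creatine, adenylate and oxygen storage 5 were higher and 8 lower, beside the same 20% and 15%. Ampd1, Car3, the synthetase Adssl1 (-2.16) and creatine kinase Ckm (-2.14) were lower in heart, and the carbonic anhydrases Car4 (1.84) and Car14 (1.37) and the adenylate kinases Ak4 (1.33) and Ak3 (0.77) were higher.

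**Figure D4:**
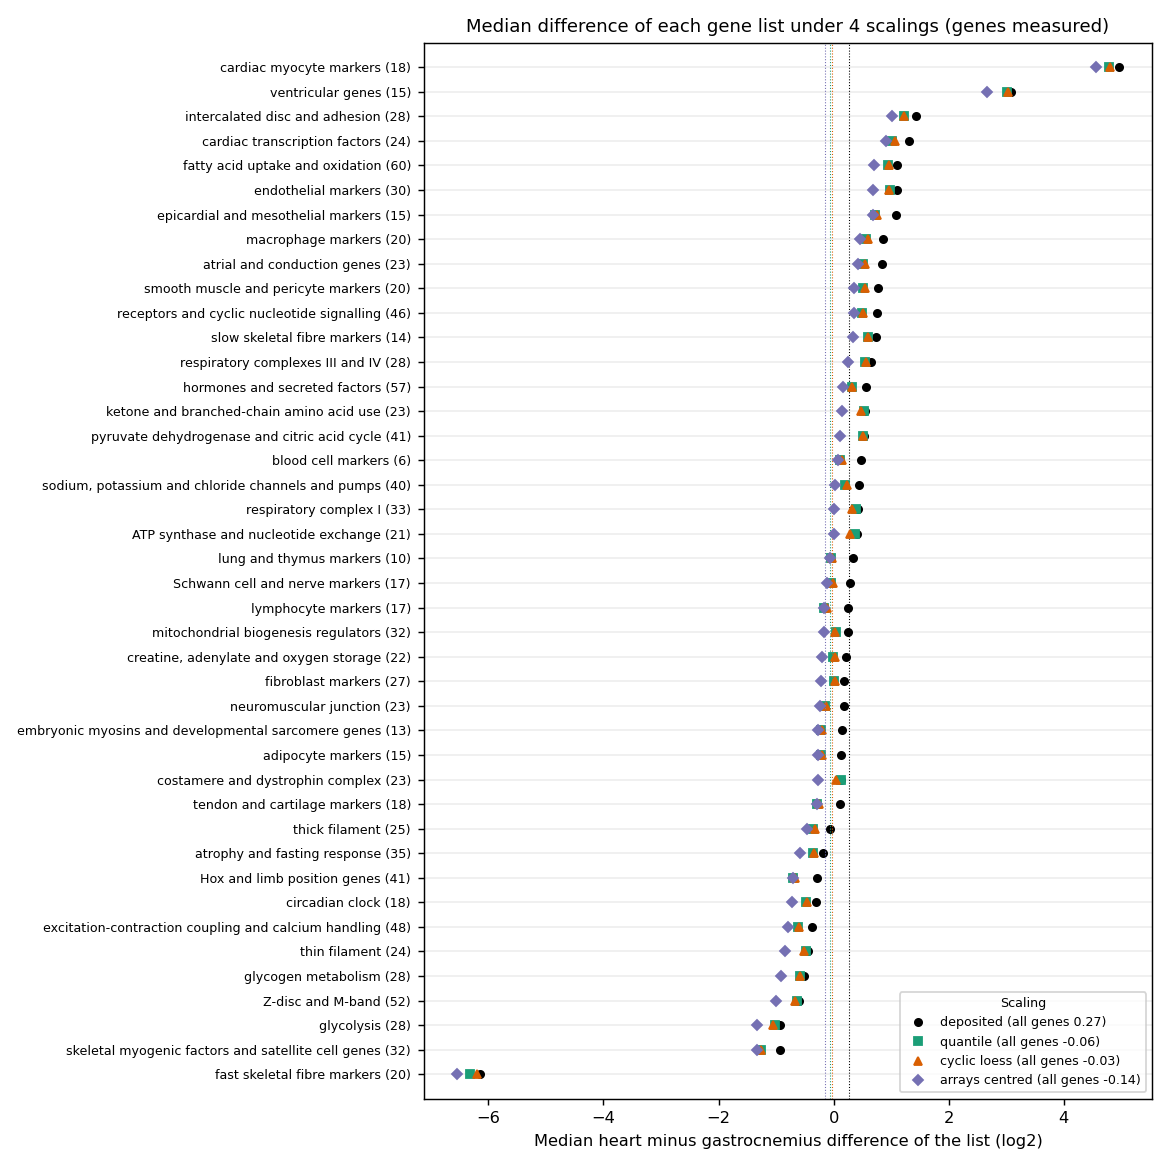
Median heart minus gastrocnemius difference (x axis, log2) of each gene list (y axis, number of genes measured in brackets) under 4 scalings, with dotted lines at the median of all genes under each. The lists in the middle, from tendon and cartilage markers (0.11 as deposited) to lung and thymus markers (0.34), have medians above 0 as deposited and below 0 with centred arrays, while the lists beyond them keep their side of 0 under the 4 scalings.

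After the overnight fast, genes of the atrophy and fasting response were lower in heart in 17 and higher in 6 of 35. The muscle ubiquitin ligases Fbxo32 and Trim63 differed by -2.13 and -1.75, and the stress gene Ddit4l by -3.85. Fbxo32 read 10.13, 10.26, 10.01 and 10.05 in heart and 12.39, 12.25, 12.03 and 12.28 in gastrocnemius, without overlap. Pdk4, the fasting-induced kinase that blocks pyruvate oxidation, read 13.29, 13.31, 13.25 and 13.30 in heart and 13.34, 13.31, 13.27 and 13.22 in gastrocnemius and was not called. It ranked 30 of 30063 genes by mean level over the 8 arrays, near the top of the range these arrays read. The metallothioneins Mt2 (2.10) and Mt1 (1.31) and Angptl4 (1.43), which inhibits Lpl, were higher. With no fed mice in the study, a response to fasting cannot be told apart from a standing tissue difference. Of 18 clock genes 10 were lower, Rora (-2.03) and Bhlhe40 (-1.04) the most, and Npas2 (1.06) was higher. The time of day of sampling is not given in the labels.

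Markers of some other cell types also differed. Endothelial markers were higher in heart in 26 of 30, 8 of them at least 2-fold under each scaling. Their mean level was 8.40 to 8.46 over the heart arrays and 7.21 to 7.41 over the gastrocnemius arrays. Kdr (1.94), Eng (1.75), Apln (1.64) and Emcn (1.56) led. Macrophage markers were higher in 17 of 20 (means 6.82 to 6.97 against 6.02 to 6.09), Adgre1 (1.38) and Lyz2 (1.33) the most, while Ccr2, a receptor of recruited monocytes, was lower (-0.39). The Ccr2 groups overlapped, at 3.97 to 4.45 in heart and 4.40 to 4.75 in gastrocnemius, below the array medians. Smooth muscle and pericyte markers were higher in 13 of 20, but Myocd and Pln, also cardiac genes, gave the largest values there, and Pdgfrb differed by 1.32. Epicardial and mesothelial markers were higher in 9 of 15, Upk3b (1.58) and Muc16 (1.49) the most. Muc16 read 4.89 to 5.03 in heart and 3.38 to 3.64 in gastrocnemius, below the array medians of both tissues.

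The remaining marker lists are read against the 20% of all genes that were higher and the 15% that were lower. Fibroblast markers were near those shares, 6 higher and 4 lower of 27, with Fbln1 (2.09) and the cardiac fibroblast factor Tcf21 (1.92) higher and the crosslinker Lox (-0.77) lower. Tendon and cartilage markers were lower in 7 of 18, including Thbs4 (-2.20), Kera (-1.80), Tnmd (-1.64) and Chodl (-2.81), which motor neurons and satellite cells also use. Adipocyte markers split, 4 higher and 6 lower of 15, Adipoq (-0.75), Retn (-0.94) and Cidec (-0.97) lower and Cidea (2.29) and Fabp4 (1.48), which capillaries also express, higher. Schwann cell and nerve markers, with 3 higher and 2 lower of 17, were near the shares of all genes, and the lower ones were the myelin genes Mbp (-0.66) and Ncmap (-0.11). The Ncmap call was lost without heart replicate 1, 2 or 3 or gastrocnemius replicate 1 or 4 (limma adjusted p = 0.0523 to 0.0934). Of the lymphocyte, blood cell, and lung and thymus markers 0 of 17, 2 of 6 and 1 of 10 were higher. The part that other cell types have in the differences above was not tested.

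Heart arrays differed among themselves in atrial and liver transcripts. Sln read 10.63, 9.91, 11.25 and 9.36 on heart arrays 1 to 4 and 7.35, 6.59, 6.57 and 6.66 in gastrocnemius, and the atrial light chain Myl7 9.84, 9.01, 10.41 and 8.53 and 6.09, 6.11, 6.08 and 6.18. Myl7, Sln, Myl4 and Mybphl all followed the order 3, 1, 2, 4 over the heart arrays, whereas Bmp10 ran 2, 3, 1, 4 and Nppa 3, 4, 1, 2. In gastrocnemius the slow fibre genes Myh7, Tnnc1, Tnnt1, Myl2, Tnni1, Atp2a2 and Casq2 had the order 3, 1, 2, 4. Nothing in the labels ties same-numbered samples of the tissues. Even the lowest heart array lay above all gastrocnemius arrays for Sln and Myl7. Atrial and conduction genes were higher in heart in 18 of 23, with Nr2f2 (-0.15) and Isl1 (-0.22) lower. Albumin, Alb, a liver transcript picked once its values were known, read 7.84, 9.54, 5.96 and 6.42 in heart and 4.92, 4.55, 4.47 and 4.57 in gastrocnemius, and the urinary protein gene Mup20 6.56, 7.69, 4.77 and 4.75 and 3.90, 3.84, 3.74 and 3.75. Heart replicates 2 and 1 were the highest for both. Without heart replicate 2 the Alb difference was 2.11 in place of 2.81 (limma adjusted p = 0.00088). Over 16 liver transcripts the mean level was 5.76, 6.41, 5.41 and 5.38 in the heart arrays and 4.60 to 4.77 in gastrocnemius. Where these transcripts came from was not tested. At 24 months the differences were smaller on the same scale, 1.22 for Sln, 2.11 for Myl7, 0.46 for Bmp10, 0.34 for Alb and 0.11 for Mup20, though a change with age was called for none of them (limma adjusted p = 0.359, 0.595, 0.204, 0.135 and 0.172).

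At 24 months the tissue difference recurred. Of the 2392 genes called with at least 2-fold at 6 months, all had the same sign at 24 months, 2382 (99.6%) were called again and 2010 (84%) were again at least 2-fold, against 7.96% of all genes at that age. These counts are on the deposited scale, where the median difference of all genes was 0.27 at both ages. Of the 2392, 1330 were at least 2-fold under all 4 scalings at 6 months. Recurrence was not counted under the other scalings. In all, 71.8% of genes were called at 24 months, 58.6% higher and 13.3% lower in heart on the deposited scale, and 5.93% and 2.03% by at least 2-fold. The 24-month samples are other arrays, so this is a second measurement of the tissues rather than of the age group. Myh6 differed by 6.07 and Myh4 by -7.84 at 24 months. A change of the tissue difference with age was called for 179 genes (0.595%; limma interaction term), 41 of them among the 2392. That count ranged from 22 without heart replicate 1 of the 6-month group to 547 without gastrocnemius replicate 3 of the 24-month group, so it depended on single arrays. The 5 smallest p-values belonged to Amtn, Gm25985, Prkcq, Mir6240 and Borcs6. Prkcq, the T cell and muscle kinase, differed by -2.76 at 6 months and -2.04 at 24 months (limma adjusted p of the change = 0.0118). Of the genes described above, Ano5 (-4.20 to -3.28), Scn4b (-2.47 to -1.77) and Capn3 (-3.59 to -3.26) were also called, each with a smaller difference at 24 months (limma adjusted p = 0.0194, 0.0394 and 0.0326).

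**Figure D5:**
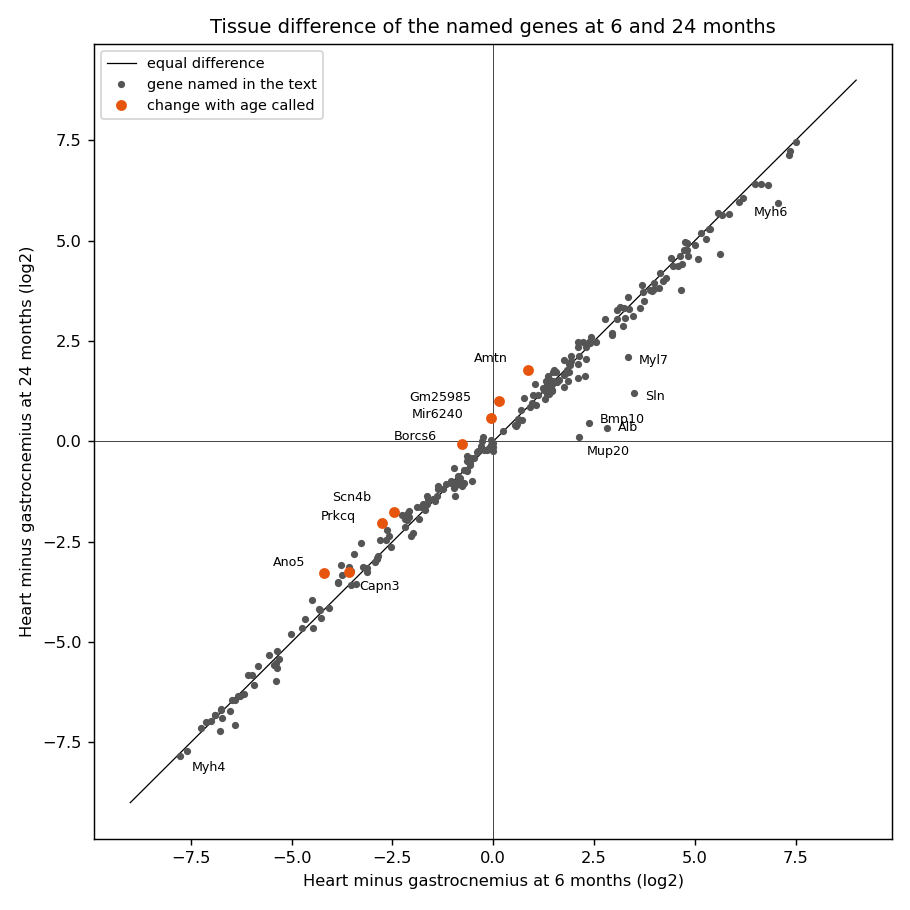
Heart minus gastrocnemius difference (log2) at 6 months (x axis) and at 24 months (y axis) of the genes named in the text; the line marks equal differences and orange points the genes whose change with age was called. Most points lie near the line, and Sln, Myl7, Bmp10, Alb and Mup20 lie below it.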

How the data were processed

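Total RNA was amplified with a whole-transcript kit and hybridised to Affymetrix arrays, per the labels' protocols. The authors deposited log2 expression values, 1 per probe set and array. The submitters' processing notes list RMA without a version. Neither labels nor notes say which arrays formed one RMA run. RMA can remove a shift common to most genes. Of 65956 probe sets, 30604 had 1 gene symbol in the platform annotation, 2146 several and 33206 none; only the first were used, with 1135 symbols updated through RefSeq (GRCm38.p6). The probe set with the highest mean over the 16 heart and gastrocnemius arrays stood for its gene (30063 genes). Arrays give no read depth; their number limits the precision, and the median SE of a difference was 0.058.

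Groups came from the labels. The 8 arrays at 6 months were fitted in R 4.3.3 with limma 3.58.1 (lmFit, eBayes, two-sided), with Benjamini-Hochberg adjustment over all genes and a threshold of 0.05. The 24-month arrays were fitted alike, and the change with age as an interaction over all 16. On simulated data at the real spread, 99 of 100 genes changed by 1 log2 unit and 85 of 100 changed by 0.5 were recovered, and 16 of 29863 unchanged genes were called. The simulation held no shift between tissues and far fewer changed genes, so it does not gauge calls that follow the scaling. Arrays of one tissue and age correlated at 0.9931 or more over genes, and no pair was a duplicate. The labels give no scan or extraction batch.

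The members and gene lists were chosen with earlier results of these data known. Genes named are the 15 with the largest difference in each direction, members of fixed pairs, up to 4 per direction of each of 42 lists plus members against a list's direction, defining members not called, and the 5 of smallest p for age. MicroRNA genes, liver transcripts and the rule of 4 scalings were chosen after seeing the data. Alternatives were other scalings, dim genes left out, every probe set or their mean, an intensity trend, a joint fit, array weights, the replicate block, a 1.5-fold minimum and leaving out each array. Some genes are not analysed here.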

Additional observations from a re-analysis of the deposited data

Results flagged for a closer look

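In groups of 4 arrays a value stands apart by Dixon's test where its gap to the nearest other value exceeds Dixon's critical share of the group's range. Chance gives this for about 1 in 20 groups, and 34 of 504 groups over 252 named genes met it, 24 of them with a range under 0.3 log2 units. The widest gaps were those of the fast oxidative myosin Myh2 and of Fhl1, both low on gastrocnemius replicate 4, of the tendon gene Tnmd, high on replicate 3, and of the pump regulator Sln, high on replicate 1.

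On gastrocnemius replicate 1, Ckm read 13.11 against 13.18 to 13.19, Gpr22 read 3.0 against 3.12 to 3.14 and Kcnk3 read 6.39 against 6.17 to 6.20 on the other arrays of its group. Also on gastrocnemius replicate 1, Sln read 7.35 against 6.57 to 6.66 on the other arrays of its group. On gastrocnemius replicate 2, Hoxc4 read 6.63 against 6.49 to 6.50 and Nppa read 5.55 against 5.67 to 5.69 on the other arrays of its group. On gastrocnemius replicate 3, Bves read 9.63 against 9.82 to 9.84, Lbh read 6.57 against 6.36 to 6.39 and Ogdhl read 5.87 against 5.76 to 5.76 on the other arrays of its group. Also on gastrocnemius replicate 3, Tnmd read 6.43 against 5.32 to 5.45 and Tnni3k read 3.99 against 3.93 to 3.94 on the other arrays of its group. On gastrocnemius replicate 4, Amd-ps3 read 12.26 against 11.92 to 11.96, Amd2 read 10.61 against 10.27 to 10.28 and Fhl1 read 8.86 against 9.65 to 9.79 on the other arrays of its group. Also on gastrocnemius replicate 4, Kcnma1 read 8.60 against 8.91 to 8.96, Mstn read 10.72 against 10.19 to 10.21 and Myf6 read 10.88 against 10.50 to 10.55 on the other arrays of its group. Also on gastrocnemius replicate 4, Myh1 read 12.13 against 12.67 to 12.76, Myh2 read 11.58 against 12.56 to 12.70 and Pde3a read 6.01 against 5.95 to 5.96 on the other arrays of its group. Also on gastrocnemius replicate 4, Popdc3 read 9.43 against 9.28 to 9.30 on the other arrays of its group.

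On heart replicate 2, Gdf11 read 5.56 against 5.42 to 5.42 on the other arrays of its group. On heart replicate 3, Idh2 read 11.73 against 11.86 to 11.88, Mir6240 read 12.85 against 12.99 to 13.01 and Tnnt2 read 13.26 against 13.36 to 13.38 on the other arrays of its group. On heart replicate 4, Actn2 read 12.80 against 12.76 to 12.76, Amd2 read 7.06 against 6.83 to 6.85 and Chodl read 3.73 against 3.49 to 3.52 on the other arrays of its group. Also on heart replicate 4, Myh1 read 5.66 against 5.54 to 5.55, Myh4 read 6.0 against 5.76 to 5.78 and Myoz2 read 12.25 against 12.05 to 12.08 on the other arrays of its group. Also on heart replicate 4, Prkag3 read 6.31 against 6.38 to 6.39, Tnni3 read 11.16 against 11.10 to 11.11 and Hand2 read 7.91 against 7.72 to 7.73 on the other arrays of its group.

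The tissue difference changed between 6 and 24 months, by the interaction term in limma, for these named genes: Amtn by 0.93 (from 0.87 to 1.79), Ano5 by 0.92 (from -4.20 to -3.28), Borcs6 by 0.70 (from -0.76 to -0.068), Capn3 by 0.33 (from -3.59 to -3.26), Gm25985 by 0.85 (from 0.15 to 1.0), Mir6240 by 0.64 (from -0.048 to 0.59), Prkcq by 0.72 (from -2.76 to -2.04) and Scn4b by 0.70 (from -2.47 to -1.77).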

How the results depend on the processing

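The number of genes called at 6 months stayed within 1.5 times of 23266 under every alternative except a required minimum of 1.5-fold, with 4117 genes, and calling in the same direction in all 4 scalings, with 10512. Genes at least 2-fold higher in heart were 1733 as deposited, 934 after quantile normalization, 678 with centred arrays, 970 after cyclic loess and 676 in all 4 scalings. Those at least 2-fold lower were 659 as deposited, 1633 with centred arrays, 983 after quantile normalization and 975 after cyclic loess. At 24 months the 2-fold higher genes were 1782, then 930, 719 and 928 under the same scalings, and the lower ones 611, then 951, 1281 and 939. Changes with age were called for 179 genes, 113 after quantile normalization, 138 with centred arrays, 100 after cyclic loess, 353 with dim genes left out, and 22 to 547 when each array was left out. Leaving out each array at 6 months gave 22370 to 22945 calls.

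Replicate numbers are shared by the tissues, but nothing in the labels ties the samples: deviations of same-numbered heart and gastrocnemius arrays from their group means correlated at -0.032, -0.009, 0.041 and -0.020, and not every array correlated best with its own number. With the replicate number as a block 23032 genes were called at 6 months, 21916 at 24 months and 201 for the change with age.

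Of 252 genes named with values, 213 kept direction and call in every alternative run. Hrc turned to -0.16 with centred arrays, and Gm25985 to -0.27, -0.26 and -0.23 after quantile normalization, centring and cyclic loess; the cause was not tested. With centred arrays each list's median moved by the shift of all genes; after quantile normalization it moved by amounts that differed between lists, the thin filament list from -0.44 to -0.48 and the Hox and limb list from -0.29 to -0.70. Dim genes are read near background, where differences are compressed.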

Other observations

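Among genes of no list, picked once their values were known, several differed widely between heart and calf muscle. Higher in heart under all 4 scalings were the receptor Gpr22 (4.77), the antisense transcript Hand2os1 (4.81) beside the cardiac factor gene Hand2, the small GTPase Rrad (4.66), which inhibits calcium channels, the homeobox factor Prox1 (3.99), prostaglandin D synthase Ptgds (3.71) and the clotting inhibitor Tfpi (3.64). Hand2 itself differed by 1.51, and since the strand read by the probes is not stated, signal of this gene and its antisense partner cannot be told apart. Lower in heart were the tetraspanin Tspan8 (-5.32), the surface glycoprotein Cd24a (-5.02), the methyltransferase Mettl21c (-4.50), Ctxn3 (-5.38) and the myosin antisense transcript Myhas (-3.57). The polyamine gene family of S-adenosylmethionine decarboxylase was lower together, Amd2 by -3.46 and the copies Amd-ps1 and Amd-ps3 by -3.77 and -3.28; near-identical copies can share probes, so which copy was read is uncertain. By class of gene on the deposited scale, small nuclear RNA genes ran against the rest. Of 914, 53 were at least 2-fold lower in heart and 11 at least 2-fold higher, against 2.19% and 5.76% of all genes. The median of the small nuclear RNA genes was -0.11, against 0.29 over 19070 protein-coding genes. Whether copies among them share probes was not tested, and gene classes were not counted under the other scalings.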
